A study of Rattus norvegicus with 9 samples.

Results

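Transcript levels in the proximal colon of rats fed soy protein isolate (SPI) were set against those of rats fed whey protein hydrolysate (WPH), a direct comparison of the 2 proteins. The members were the 3 SPI and the 3 WPH arrays, 6 of the 9 rat RG_U34A arrays of the series, and the 5454 of 8740 non-control probe sets whose signal averaged 100 or more in either diet. A probe set is a group of short DNA probes that reads 1 transcript, or a few related ones. All rats were male Sprague-Dawley offspring on AIN-93G-type diets that differed in their protein, fed to the dams and to the offspring for life, and the remaining 3 arrays came from rats fed casein (CAS). Every group, CAS included, had been injected with azoxymethane (AOM), which causes colon tumors, 2 times at 15 mg/kg from 90 days of age. Colon without visible tumor was taken 40 weeks later. Each diet's RNA was a pool from 7 rats, and 3 targets were made from 8 µg of each pool. The spread between arrays of a diet is therefore technical, and every p-value below compares 2 pools of RNA and not 2 populations of rats.

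The colon wall holds an absorptive and mucus-secreting epithelium over a layer of connective tissue and immune cells, and, beneath these, smooth muscle with the nerve cells and glia of the enteric nervous system. Soy protein isolate carries isoflavones and other plant compounds along with the protein, whereas whey hydrolysate is milk whey protein cut into peptides. The epithelium of the gut secretes small lectins of the Reg family and other antimicrobial proteins, which are known to rise when the mucosa is injured or meets bacteria. Markers of colon were present in both diets. Muc2, the main mucin of goblet cells, gave signals of 4778, 6832 and 4985 with SPI and 1038, 1599 and 1525 with WPH, and Myh11, the smooth muscle myosin, gave 21260.3, 19296 and 20359 with SPI and 28052, 31276 and 28068 with WPH.

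Each array had been scaled to the same average signal, and between 58.7 and 60.3% of probe sets reached a signal of 100 on the 6 arrays. Between a pair of SPI arrays, 2.46 to 3.98% of the compared probe sets differed by at least 2-fold, and between a pair of WPH arrays 3.78 to 5.19%. Between an SPI and a WPH array the share was 7.98 to 12.4%. The 3' to 5' signal ratio of β-actin, a measure of how complete the transcripts are, was 2.21 ± 0.126 (SD, n = 3) with SPI and 2.98 ± 0.488 with WPH, with no overlap (2.14 to 2.36 against 2.53 to 3.50). That of glyceraldehyde-3-phosphate dehydrogenase overlapped (1.56 ± 0.0848 and 1.63 ± 0.0691). The part of this RNA quality difference in the results was not tested. Arrays fell into 3 rounds by their recorded hybridization times, called wash rounds here, with a gap of over 10 minutes opening a new round. The grouping used the clock time without the date, so that it was inferred and not recorded. Arrays said below to be washed together are those of 1 such round. SPI replicates 1 and 2 and WPH replicates 1 and 3 shared the second round. WPH replicate 2 fell with the CAS arrays, and SPI replicate 3 stood alone. A comparison within a wash round therefore rests on the 4 arrays of the second round.

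More transcripts were clearly higher with SPI than with WPH, and the increases were larger. With limma, 243 probe sets of 172 named genes were higher with SPI (4.46% of those compared) and 56 of 38 named genes were lower (1.03%), with an adjusted p under 0.05 and at least a 2-fold difference. The fitted change was at least 8-fold for 33 of the former and 3 of the latter. Without the 2-fold minimum, equal numbers were higher and lower, 554 each (10.2% in each direction, 20.3% in all). This 10.2% is the share to set beside each list count below. Over all probe sets the log2 change, SPI minus WPH, had a median of -0.08 and quartiles of -0.30 and 0.19. In 241 of the 243 and 55 of the 56 probe sets every SPI array lay on the same side of every WPH array. The share over all probe sets was not counted, so that non-overlap given below only describes the arrays. With wash round as a block (the block fit), 199 of the 243 and 30 of the 56 were still called. The block fit takes its change from the 4 arrays of the second round, and differs from their own comparison in its estimate of the spread alone. Among these 4 arrays all 243 and all 56 kept their sign, which for the 241 and 55 had to follow. Without the 2-fold minimum fewer probe sets passed in the block fit and among these 4 arrays. The 10.2% therefore does not apply to list counts from those fits, whose totals are given near the end.

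**Figure D1:**
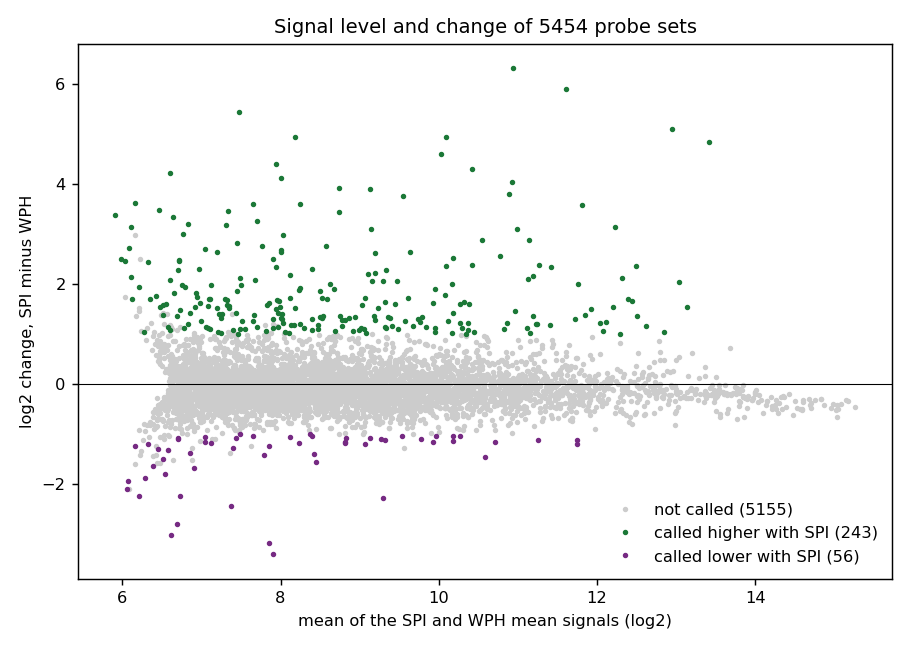
Each point is 1 of 5454 probe sets, with the mean signal of both diets on a log2 scale on the horizontal axis and the log2 change, SPI minus WPH, on the vertical axis. The 243 probe sets called higher with SPI reach a log2 change of 6.30, whereas the 56 called lower reach -3.40.

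The transcripts of the secreted Reg lectins were among the largest increases. Reg3g and Reg3b encode lectins that bind and damage bacteria at the mucosal surface, and Reg1a a related protein linked to regeneration of the epithelium. The signal of Reg3g was 21112, 21442 and 20702 with SPI and 738, 689.5 and 779 with WPH. That of Reg3b was 16011, 13503 and 16636 with SPI and 423, 415 and 517 with WPH. With SPI both signals were over 10000, and no array of one diet came near an array of the other. The changes were 28.7-fold for Reg3g (log2 change 4.84 ± 0.09 (SE), adjusted p = 6.52e-11) and 34.05-fold for Reg3b (5.09 ± 0.14, adjusted p = 1.53e-09).

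Reg1a was read at 4375, 3065 and 4145 with SPI and 47.3, 30.6 and 77.7 with WPH. All 3 WPH arrays were under 100, so that its change is given as a lower bound, at least 38.6-fold (fitted log2 change 6.30 ± 0.54, adjusted p = 1.24e-05). A lower bound here is the mean with the higher diet over that with the lower diet, with signals of the lower diet under 100 set to 100. Where only some arrays of the lower diet were under 100, the fold is that of the means as read, and the fold with those arrays set to 100 follows it where it is clearly smaller. With CAS the mean signal was 1374 ± 123 (SD, n = 3) for Reg3g, 225 ± 33.8 for Reg3b and 3.1 ± 2.17 for Reg1a. All 3 measured Reg genes were thus called higher with SPI, and their median log2 change was 5.09.

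The 3 genes lie together on chromosome 4 of the GRCr8 assembly of RefSeq. The 250 bases before their annotated starts are shown because these neighbouring genes changed together. Capitals mark TATAAA, the core of the TATA box, on either strand, which 12.9% of 33469 rat promoters of this length hold, and TTCNNNGAA, a site form of STAT factors, which 7.67% hold. TATAAA began at -29 in Reg3b and Reg1a and at -32 in Reg3g, and TTCNNNGAA at -129 in Reg3b and -242 in Reg1a, counted from the start (-1 is the base before it). A match is only a match of letters.
Reg3b, chr4:112419526-112419775, plus strand: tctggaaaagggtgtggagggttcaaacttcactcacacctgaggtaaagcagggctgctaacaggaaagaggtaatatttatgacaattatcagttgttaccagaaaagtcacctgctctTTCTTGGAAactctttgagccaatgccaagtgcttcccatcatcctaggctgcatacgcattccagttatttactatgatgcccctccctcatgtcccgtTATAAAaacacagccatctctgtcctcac
Reg1a, chr4:112450216-112450465, plus strand: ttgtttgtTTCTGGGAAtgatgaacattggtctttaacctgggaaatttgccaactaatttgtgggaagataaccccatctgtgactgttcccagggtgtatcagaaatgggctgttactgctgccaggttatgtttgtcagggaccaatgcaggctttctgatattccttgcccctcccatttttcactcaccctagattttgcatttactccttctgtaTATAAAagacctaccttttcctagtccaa
Reg3g, chr4:112484739-112484988, minus strand: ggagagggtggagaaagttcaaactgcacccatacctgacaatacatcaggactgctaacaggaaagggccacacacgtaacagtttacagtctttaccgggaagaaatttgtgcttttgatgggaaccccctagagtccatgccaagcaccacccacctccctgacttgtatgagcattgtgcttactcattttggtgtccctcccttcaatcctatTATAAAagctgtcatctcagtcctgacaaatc

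Other antimicrobial transcripts were higher with SPI as well. Of 7 Paneth cell and antimicrobial genes on the array, all 6 measured were higher, Reg3g among them. Their median log2 change was 2.10, against -0.08 over all probe sets, or 1.34 with lower bounds for Lcn2, Mmp7 and Defb1. Lcn2, Mmp7 and Defb1 passed the signal filter through SPI alone and could hardly come out lower. The filter thus favoured this direction. Lcn2, which encodes an iron-withholding protein of neutrophils and epithelium, gave 239.9, 227 and 200.4 with SPI and 16.2, 33.9 and 71.5 with WPH (at least 2.23-fold, adjusted p = 0.00152). Pla2g2a, a secreted phospholipase that kills bacteria, gave 1129, 1092 and 1215 with SPI and 222, 300.2 and 305 with WPH (4.15-fold, adjusted p = 1.01e-06). Lyz2, the macrophage lysozyme, gave 6711, 6601 and 6765 with SPI and 3273, 3505 and 3214 with WPH (2.01-fold, adjusted p = 3.92e-06). None of these 3 transcripts overlapped between diets. The β-defensin Defb1 gave 264, 126 and 268 with SPI and 92.2, 82.6 and 75.9 with WPH, at least 2.19-fold higher with SPI (adjusted p = 0.00347). Both diets lay far below the CAS mean of 2238 ± 102 for Defb1. The 3 other markers of epididymis and seminal vesicle on the array were Svs4, Adam7 and Wfdc6a, and the sum of the 4 with Defb1 was 584 to 672 with SPI and 294 to 466 with WPH, and 4700 to 4847 with CAS. The members disagreed. Svs4 had means of 223 with SPI and 55.9 with WPH, whereas Adam7 (122 and 144) and Wfdc6a (66.2 and 80.6) were not higher with SPI.

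**Figure D2:**
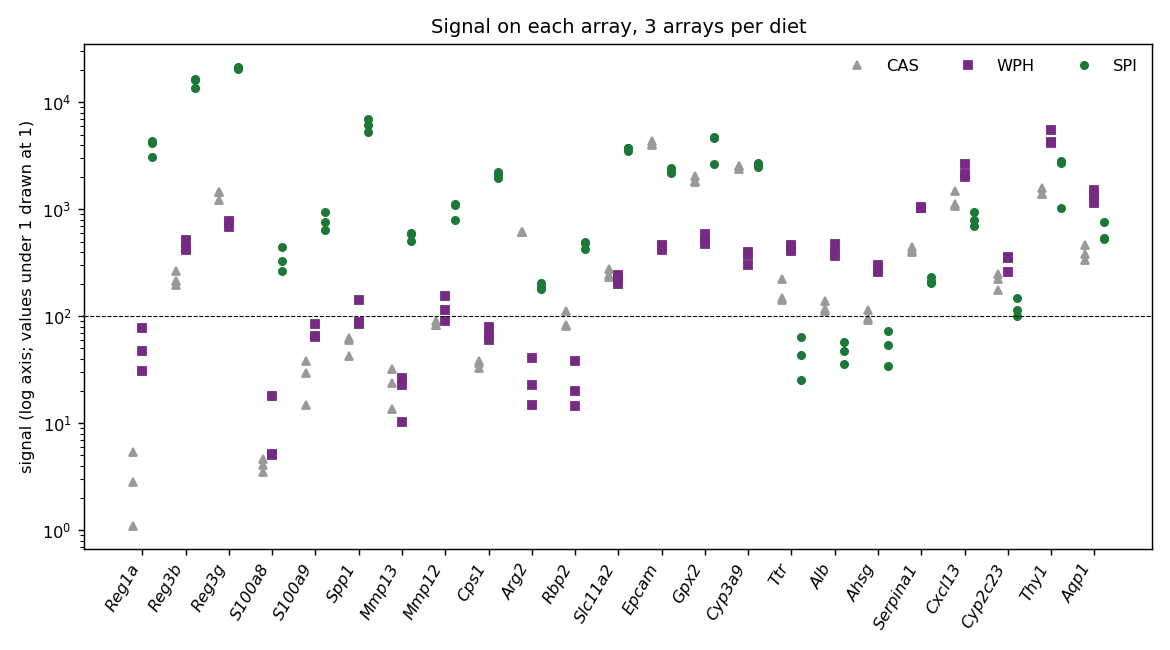
Signal of 23 named transcripts on each array, on a log axis, with 3 arrays per diet and a dashed line at a signal of 100. SPI points lie above WPH points from Reg1a to Cyp3a9 and below them from Ttr to Aqp1, without overlap. Genes named as the largest changes were chosen partly for this separation, so that it only describes the arrays.

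Transcripts of calprotectin and osteopontin set the diets far apart. S100a8 and S100a9 encode the 2 chains of calprotectin, the abundant calcium-binding protein of neutrophils. The signal of S100a9 was 952, 757 and 639 with SPI and 65.9, 63.8 and 85.4 with WPH. That of S100a8 was 329, 267 and 446 with SPI and 18, 5.1 and 5.2 with WPH, so that both were under 100 on every WPH array. The changes were at least 7.83-fold for S100a9 (adjusted p = 3.83e-05) and at least 3.47-fold for S100a8 (adjusted p = 0.00243). The summed signal of 3 neutrophil markers (S100a8, S100a9 and Lcn2) was 1251 to 1521 with SPI and 100.1 to 162 with WPH, against 98.1 to 120.2 with CAS. RatNP-3b, which is in the list of neutrophil and acute phase genes but not in this sum, did not pass the test (log2 change 0.07, adjusted p = 0.858). Fewer cells of a type and less RNA per cell cannot be told apart in such tissue RNA, here or below.

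Spp1, which encodes osteopontin, a secreted adhesion protein of macrophages and epithelium, was read at 6921, 5334 and 6134 with SPI and 142, 88.6 and 85.5 with WPH. This is a 58.1-fold difference, or 53.7-fold with 2 WPH arrays set to 100, log2 change 5.89 ± 0.22 (adjusted p = 1.65e-08), and the CAS mean was 55.03 ± 10.9. The probe set for the immunoglobulin gamma-2a chain, which has no single gene symbol here, gave 2527, 2761 and 2531 with SPI and 143, 164 and 99 with WPH, a change of 19.3-fold (adjusted p = 1.13e-04). Immunoglobulin genes share sequence, so that this value can include related chains. In the list of neutrophil and acute phase genes, 4 of 9 members were higher and 2 were lower, or 4 and 1 in the block fit. The 2 lower ones were haptoglobin (Hp) and fibrinogen alpha (Fga), which are plasma proteins. A2m, an acute phase protease inhibitor, counted as higher through its brightest probe set (log2 change 2.06), but its 3 other probe sets gave -0.21, 0.03 and -0.19 and did not pass the test.

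A minority of the chemokine and interleukin transcripts were higher with SPI. Of 23 measured, 7 were higher and 1 was lower (3 and 1 in the block fit), and the median log2 change was 0.04. Il1a, an alarm cytokine of epithelium and macrophages, gave 379.8, 450.4 and 481 with SPI and 115, 30 and 92.5 with WPH. The difference was 5.53-fold, or 4.17-fold with 2 WPH arrays set to 100 (adjusted p = 8.19e-04). Cx3cl1, a membrane-bound chemokine of epithelium and endothelium, was 2.95-fold higher through its brightest probe set (adjusted p = 1.04e-04) and log2 1.91 higher through another, while the remaining one gave 0.21 (adjusted p = 0.362). Ccl2, which draws monocytes, was read at 947, 891 and 1026 with SPI and 446, 386 and 318 with WPH, a 2.49-fold difference (adjusted p = 1.02e-04). Cxcl6 and Cxcl10 were higher by log2 0.86 and 0.72, and lost the call with wash round as a block (adjusted p = 0.108 and 0.223).

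Some macrophage transcripts were modestly higher with SPI. Among 9 macrophage and monocyte genes, 4 were higher and none was lower. They were cathepsin S (Ctss, 2.10-fold), Lyz2, Aif1 (1.81-fold) and apolipoprotein E (Apoe, 1.66-fold). Cd14, a receptor for bacterial lipopolysaccharide, and Csf1r, the receptor of the macrophage growth factor, formed a marker sum that overlapped between diets, 417 to 457 with SPI and 305 to 472 with WPH. Csf1r had a mean under 100 in both. Of 11 T and natural killer cell genes, 1 was lower and none higher, a share near the 10.2% over all probe sets, and none passed in the block fit. The lower one was Lck, a kinase of the T cell receptor (651, 827 and 744 with SPI and 958, 1091 and 1038 with WPH, 1.39-fold lower, adjusted p = 0.0160, or 0.123 in the block fit). The 4 T cell markers on the array summed to 1368 to 1572 with SPI and 1723 to 1892 with WPH, lower on every SPI array. Cd3g, a chain of the T cell receptor complex, gave 297, 329.5 and 338 with SPI and 227, 254 and 221 with WPH, with every SPI array above every WPH array, but did not pass the test (adjusted p = 0.0673). Cd5, another T cell surface protein, was lower with SPI through 1 probe set (132, 61.3 and 112 against 269, 198 and 242, adjusted p = 0.0318), whereas its brighter probe set missed the threshold (log2 change -0.54, adjusted p = 0.406).

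Cxcl13, the chemokine that draws B cells into lymphoid follicles, was among the largest decreases with SPI. Its signal was 953, 706 and 802 with SPI and 2649, 2127 and 2008 with WPH. The change was 2.76-fold lower (log2 change -1.46 ± 0.16, adjusted p = 8.22e-05). Among 21 genes of antigen processing and presentation, 4 were higher (2 in the block fit) and none lower, with RT1-Ba, a class II chain, at 0.88 on the log2 scale (adjusted p = 8.70e-04). For its partner RT1-Bb the probe sets disagreed. One gave 1013, 1021 and 1014 with SPI against 222, 255 and 255 with WPH (log2 change 2.06, adjusted p = 3.33e-07), and 2 others gave -1.16 and -1.09 (adjusted p = 0.00525 and 0.00115). The brightest one, which stands for the gene in that count, gave -0.24 and did not pass the test (adjusted p = 0.0850). No direction is therefore given for RT1-Bb.

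Matrix metalloproteinases, enzymes that cut collagen, elastin and other matrix proteins, included 4 genes that were higher with SPI. Mmp13, a collagenase, was read at 599, 505 and 586 with SPI and 22.9, 26.5 and 10.3 with WPH, and all 3 WPH arrays were under 100 (at least 5.63-fold, adjusted p = 2.85e-05). Mmp12, the macrophage elastase, gave 1131, 797 and 1101 with SPI and 91, 115 and 154 with WPH (8.42-fold, adjusted p = 1.82e-06). Mmp7, or matrilysin, an epithelial protease that activates defensins, gave 284, 236 and 348 with SPI and 76.6, 84.7 and 43.4 with WPH (at least 2.89-fold, adjusted p = 4.27e-04). The SPI and WPH arrays did not overlap for these genes, whose CAS means were 23.1, 85.6 and 79.7. Mmp3, or stromelysin, gave 134, 149.6 and 169 with SPI and 75, 57.3 and 77.7 with WPH (at least 1.51-fold, adjusted p = 0.0126, or 0.130 when wash round was a block).

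In the whole list of matrix proteases and inhibitors, 6 of 16 were higher and 1 was lower, with a median log2 change of 0.21. The other 2 higher ones were the urokinase receptor (Plaur) and urokinase (Plau), at 0.95 and 0.53 on the log2 scale. The lower one was Mmp11, a protease of fibroblasts, at 100.1, 122 and 177 with SPI and 265, 223 and 318 with WPH (2.02-fold lower, adjusted p = 0.0281). Within collagens and fibroblast matrix, 5 of 27 were higher and 7 lower, or 3 and 4 in the block fit. The higher ones included Spp1, Lox, which cross-links collagen, and Mgp, an inhibitor of calcification. Decorin (Dcn), fibronectin (Fn1) and Col5a1 were among the lower ones, at -0.60, -0.58 and -0.65 on the log2 scale.

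Mmp13, Mmp12, Mmp3 and Mmp7 lie in 1 cluster on chromosome 8 of GRCr8, and the 250 bases before their starts are shown because all 4 were higher with SPI. Capitals mark TATAAA and TGACTCA, the core of the AP-1 site, on either strand. TGACTCA was found in all 4, at -66 in Mmp13, -87 in Mmp12, -71 in Mmp3 and -80 in Mmp7, while 4.05% of 33469 rat promoters hold it. TATAAA was present in all 4 too. The other promoters scanned, of Reg3b, Reg1a, Reg3g, Spp1, Slc11a2, Rbp2, Cps1 and S100a9, held no TGACTCA, although these genes were also higher with SPI. Here too a match is only a match of letters.
Mmp13, chr8:12782579-12782828, plus strand: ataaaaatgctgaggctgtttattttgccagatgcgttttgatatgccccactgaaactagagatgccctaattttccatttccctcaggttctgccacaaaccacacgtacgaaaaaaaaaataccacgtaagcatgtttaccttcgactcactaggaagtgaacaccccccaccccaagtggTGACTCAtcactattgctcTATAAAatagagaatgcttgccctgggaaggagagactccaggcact
Mmp12, chr8:12866402-12866651, plus strand: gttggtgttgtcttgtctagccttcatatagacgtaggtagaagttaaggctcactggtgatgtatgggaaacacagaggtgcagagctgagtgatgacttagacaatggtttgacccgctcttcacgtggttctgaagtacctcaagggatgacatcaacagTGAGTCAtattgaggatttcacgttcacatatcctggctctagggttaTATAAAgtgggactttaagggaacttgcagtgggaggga
Mmp3, chr8:12925031-12925280, plus strand: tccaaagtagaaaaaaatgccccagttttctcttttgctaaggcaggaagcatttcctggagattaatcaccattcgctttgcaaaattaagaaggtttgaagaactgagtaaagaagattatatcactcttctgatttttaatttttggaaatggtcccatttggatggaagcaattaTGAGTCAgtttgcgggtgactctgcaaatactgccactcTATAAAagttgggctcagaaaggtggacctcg
Mmp7, chr8:13132793-13133042, plus strand: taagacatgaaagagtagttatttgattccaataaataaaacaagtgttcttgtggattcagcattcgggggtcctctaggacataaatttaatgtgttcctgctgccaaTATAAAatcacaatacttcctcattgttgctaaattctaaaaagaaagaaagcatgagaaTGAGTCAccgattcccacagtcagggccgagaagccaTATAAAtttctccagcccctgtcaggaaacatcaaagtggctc

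Epithelial transcripts were higher with SPI almost throughout. Of 26 measured colon epithelial markers, 24 were higher and none was lower, and the median log2 change was 1.41. With wash round as a block 16 of the 26 were higher and none was lower. Epcam, the epithelial cell adhesion molecule, was read at 2169, 2284 and 2443 with SPI and 443, 413 and 466 with WPH (5.22-fold, adjusted p = 1.94e-08). Keratin 18 (Krt18), of the epithelial cytoskeleton, gave 1928, 1746 and 1821 with SPI and 392, 347 and 333 with WPH (5.13-fold, adjusted p = 4.14e-08). The tight junction protein claudin 3 (Cldn3) gave 1441, 1510.4 and 1718 with SPI and 483, 372 and 409 with WPH (3.70-fold, adjusted p = 3.21e-06). The diets did not overlap in any of them.

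Dmbt1, a secreted scavenger protein that binds bacteria, was brighter still, at 13042, 15113 and 12449.9 with SPI and 3151, 3311 and 3404 with WPH (4.12-fold, adjusted p = 5.05e-08). The transcription factor Foxa3 gave 286, 241 and 295 with SPI and 89.3, 54.5 and 86.8 with WPH (at least 2.74-fold, adjusted p = 6.58e-05). The other 19 that were higher ran from 0.43 (Emp1) to 1.63 (Sdc1) on the log2 scale, with cadherin 17 (Cdh17), keratin 20 (Krt20) and the transcription factor Hnf4a at 1.59, 1.60 and 1.54. The summed signal of the 6 defining markers of epithelium was 20790.3 to 21745 with SPI and 7489.6 to 8114 with WPH. With CAS it was 27115 to 27241, so that the SPI arrays lay between WPH and CAS.

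Mucin and goblet cell transcripts were higher too. Of 13, 9 were higher and none was lower (median log2 change 1.64), all 9 also with wash round as a block. Clca4, a member of the chloride channel accessory family, was read at 8828, 7424 and 9482 with SPI and 1343, 824 and 825 with WPH, an 8.60-fold change (adjusted p = 9.95e-07). The secreted mucin Muc2, given above, was 3.99-fold higher through its brightest probe set (adjusted p = 1.14e-05). A dimmer probe set of Muc2 gave a log2 change of -0.41 and did not pass the test (adjusted p = 0.168). The membrane mucin Muc13 gave 4808, 4219 and 4625 with SPI and 875, 954 and 882 with WPH (5.04-fold). Muc3, another membrane mucin, gave 1859, 2055 and 1894 with SPI and 575, 699 and 597 with WPH (3.11-fold). Dimmer probe sets of Muc3 gave smaller log2 changes, 0.64 and 0.54 (adjusted p = 0.0159 and 0.0160). Fut2 and Gcnt3, which add and branch the sugars of mucins, were at least 3.75-fold and 4.48-fold higher (adjusted p = 1.19e-04 and 2.25e-04). Trefoil factor Tff3, which goblet cells secrete with mucin, changed less, by 0.75 on the log2 scale. In goblet cell markers (Muc2, Tff3 and Zg16), the sum was 7607 to 10240.1 with SPI and 2411 to 3388 with WPH, and 19327 to 22355 with CAS.

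Ion and water transport genes of the absorptive cells were higher in 18 of 27 and lower in 1 (median log2 change 0.52). In the block fit 12 were higher, and among the 4 arrays washed together 6 were. Atp12a, the colonic proton pump that takes up potassium, was read at 407, 391 and 417 with SPI and 52.7, 75.6 and 92.3 with WPH (at least 4.05-fold, adjusted p = 3.28e-06). Slc9a3, the sodium-proton exchanger of the brush border, gave 1050.2, 799.8 and 1049 with SPI and 217, 201 and 199.8 with WPH (4.70-fold, adjusted p = 5.69e-07). Gucy2c, the receptor for guanylin, gave 955, 927 and 947 with SPI and 358, 402 and 364 with WPH (2.52-fold, adjusted p = 4.31e-06). These 3 did not overlap between diets.

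Among the ligands of that receptor, Guca2b (uroguanylin) was 2.95-fold higher, or 2.70-fold with 1 WPH array set to 100 (adjusted p = 0.00429) and Guca2a (guanylin) differed by 0.35 on the log2 scale. The water channels Aqp8 and Aqp3 differed by 1.15 and 0.94. The bicarbonate transporter Slc4a4 was higher by log2 1.69 but lost the call with wash round as a block (adjusted p = 0.136). The 1 lower member was Atp1b3, a subunit of the sodium pump, at -0.39. Against CAS, the medians of this list were -0.67 with SPI and -1.57 with WPH, and those of the epithelial list -0.41 and -1.77. Both comparisons share the CAS arrays.

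**Figure D3:**
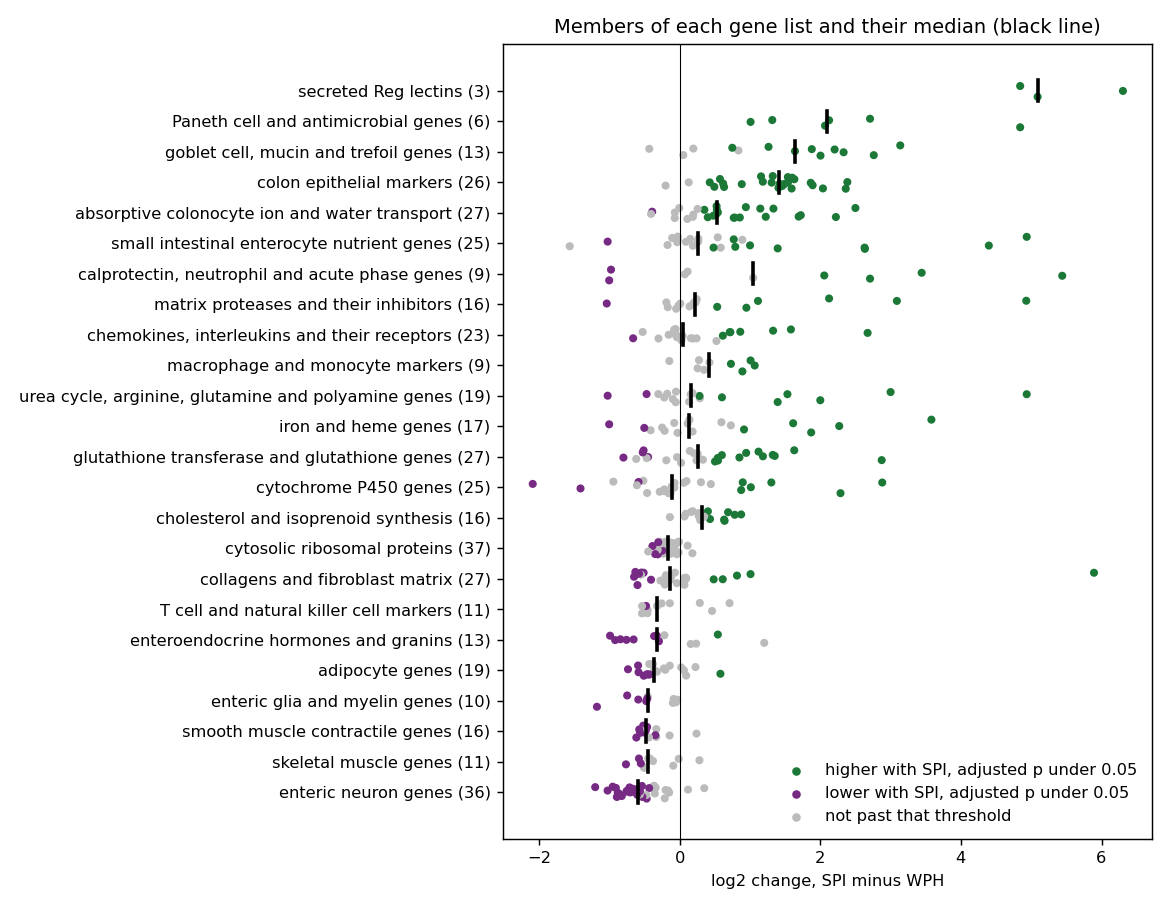
Log2 change, SPI minus WPH, of the members of 24 gene lists, 1 point a gene, with the number measured in parentheses and a black line at the median. Green points passed an adjusted p of 0.05 as higher with SPI and purple ones as lower, and epithelial and goblet cell genes lie to the right, neuron and muscle genes to the left.

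Several transcripts best known from the small intestine were present with SPI and near background with WPH. Cps1, the entry enzyme of the urea cycle, was read at 2126, 1967 and 2235 with SPI and 60.4, 80.2 and 67.3 with WPH (at least 21.1-fold, adjusted p = 1.16e-08). Rbp2, which carries retinol in enterocytes, gave 481, 429 and 495 with SPI and 14.4, 19.9 and 38.2 with WPH (at least 4.69-fold, adjusted p = 5.63e-06). Apob, the structural protein of chylomicrons, gave 337, 448 and 541 with SPI and 59, 80 and 72.2 with WPH (at least 4.42-fold, adjusted p = 1.48e-05). All 3 were under 100 on every WPH array, and their CAS means were 35.6, 91.7 and 68.2.

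Apoa1, the main protein of high density lipoprotein, gave 1264, 1529 and 1316 with SPI and 265, 198 and 205 with WPH (6.16-fold, adjusted p = 3.33e-07). The aldolase B probe set, of fructose metabolism, was read at 3899.9, 2867 and 3872 with SPI and 310.4, 216 and 244 with WPH (13.8-fold, adjusted p = 9.77e-08). Of 25 small intestinal enterocyte genes, 9 were higher and 1 was lower, with a median log2 change of 0.27. Among the 7 defining markers of small intestinal enterocytes, Fabp6, the ileal bile acid carrier, had means of 4006 and 4071, lactase (Lct) 164 and 174, and Apoa4 113 and 103, with SPI and WPH in that order. The sum of all 7 was 6966 to 7826 with SPI and 4498 to 4714 with WPH. Whether such cells account for a share of the change was not tested. Fabp2, another fatty acid carrier of enterocytes, gave 407, 361 and 354 with SPI and 95.2, 311 and 275 with WPH and did not pass the test (adjusted p = 0.0996).

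Genes of arginine handling changed in both directions. Of 19 urea cycle, arginine, glutamine and polyamine genes, 7 were higher (4 in the block fit) and 2 lower. Otc, the second enzyme of the urea cycle, was read at 208, 239 and 197 with SPI and 60.5, 77.3 and 116 with WPH, a 2.54-fold difference, or 2.04-fold with 2 WPH arrays set to 100 (adjusted p = 0.00558). Arg2, the mitochondrial arginase, gave 188, 204 and 181 with SPI and 14.9, 22.6 and 40.5 with WPH (at least 1.91-fold, adjusted p = 4.46e-05), below its CAS mean of 616 ± 2.96 in both diets. Oat, which interconverts ornithine and glutamate semialdehyde, gave 1954, 1448 and 2119.6 with SPI and 509, 444 and 415 with WPH (4.04-fold, adjusted p = 8.93e-05). Ass1, the enzyme after Otc in the cycle, went the other way, at 740.2, 740.4 and 800.2 with SPI and 1481, 1719 and 1454 with WPH (2.04-fold lower, adjusted p = 7.60e-05). Its CAS mean was 331 ± 26.6.

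Iron transport genes were among the clearest differences. Slc11a2, the divalent metal transporter that takes up iron at the brush border, was read by several probe sets. The brightest gave 6437, 7270 and 6187 with SPI and 520, 555 and 586 with WPH (11.97-fold, log2 change 3.58 ± 0.10, adjusted p = 1.53e-09). Another gave 3740, 3519.5 and 3744 with SPI and 245, 202 and 223 with WPH (16.4-fold, adjusted p = 1.82e-09). With CAS the brightest probe set had a mean of 504 ± 22.9, just below the lowest WPH array.

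Slc40a1, the iron exporter ferroportin, gave 565, 536 and 582 with SPI and 178, 98.2 and 207 with WPH (3.48-fold, adjusted p = 3.11e-04). Tfrc, the transferrin receptor, gave 249, 133 and 194 with SPI and 71.4, 62 and 50.6 with WPH (at least 1.92-fold, adjusted p = 0.00293). Hmox1, the inducible heme oxygenase that frees iron from heme, gave 1026, 1103 and 1075 with SPI and 216, 204 and 247 with WPH (4.81-fold, adjusted p = 8.72e-07). Transcripts for uptake, export and heme breakdown were thus each higher with SPI. In the whole list 5 of 17 were higher and 2 lower, or 5 and 1 in the block fit (median 0.14). The lower 2 were Hmox2, the constitutive heme oxygenase, at -0.50, and haptoglobin.

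Detoxification genes changed by family member. Of 27 glutathione genes, 12 were higher and 4 lower, or 7 and 3 in the block fit. Gpx2, the glutathione peroxidase of the gut epithelium, gave 4623, 4743 and 2628 with SPI and 477, 591 and 521 with WPH (7.55-fold, adjusted p = 1.74e-06), with SPI replicate 3 well under the other SPI arrays. Gsta3 was 2.46-fold higher (adjusted p = 2.30e-04) and Mgst3 2.56-fold (adjusted p = 1.02e-05). The mu class members Gstm1, Gstm5 and Gstm7 were lower, with Gstm1 at 761, 708 and 752 with SPI and 1193, 826 and 1050.2 with WPH (log2 change -0.45, adjusted p = 0.0249). For Gstm1 both diets lay far below the CAS mean of 5289 ± 108. Glutathione transferases of a class have near-identical sequences, so that their probe sets can share signal.

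Of 25 cytochrome P450 genes, 6 were higher and 3 lower, or 6 and 1 in the block fit. Cyp3a9, a steroid and drug hydroxylase, was read at 2645, 2725 and 2509 with SPI and 376, 300.3 and 401 with WPH (7.31-fold, adjusted p = 2.40e-08), and its CAS mean was 2481 ± 71.5. Cyp1b1, a target of the aryl hydrocarbon receptor, gave 167, 134 and 213 with SPI and 52.2, 27 and 29.2 with WPH (at least 1.72-fold, adjusted p = 0.00190). Cyp4f1, a fatty acid hydroxylase, was 2.00-fold higher (adjusted p = 2.32e-04). Cyp2c23, an arachidonic acid epoxygenase, was lower, at 115, 102 and 149 with SPI and 353, 258 and 358 with WPH (2.66-fold, adjusted p = 7.15e-04). Papss2, which makes the activated sulfate used by sulfotransferases and mucins, gave 3626, 3811 and 3469 with SPI and 363, 449.7 and 471 with WPH (8.49-fold, adjusted p = 1.65e-08). Sult1a1, a phenol sulfotransferase, was lower through the probe set called, at 321, 234 and 281 with SPI and 697, 653 and 527 with WPH (2.25-fold, adjusted p = 6.18e-04), and had a log2 change of -0.76 through its brightest one.

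Nerve cell transcripts were lower with SPI. Of 36 enteric neuron genes, 24 were lower and none was higher, and the median log2 change was -0.59. With wash round as a block 16 were lower, and within the shared round 13 were. Of the 36 changes, 34 were negative over all arrays and 34 within that round. The second number largely had to follow, as the arrays of the round are part of the whole. The median over all probe sets was negative too. The changes were small beside those of the epithelium, with 2 of the 24 at least 2-fold. Syn2, a protein of synaptic vesicles, was read at 222, 219 and 226 with SPI and 451, 483 and 426 with WPH (2.04-fold lower, adjusted p = 3.39e-04). Nefm, a neurofilament chain, gave 378, 304 and 409.8 with SPI and 776, 652 and 675 with WPH (1.93-fold, adjusted p = 6.27e-04). Ret, the receptor that guides enteric nerve cells, gave 373, 312 and 360.4 with SPI and 675, 647 and 574 with WPH (1.81-fold, adjusted p = 0.00131). The diets did not overlap in these values of the 3 genes. Other probe sets of Ret gave log2 changes of -0.21 and -0.10 and did not pass the test (adjusted p = 0.446 and 0.795).

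Cacna2d1, a calcium channel subunit of nerve and muscle, gave 2612, 2985 and 2853 with SPI and 5389, 4982 and 5326 with WPH (1.86-fold lower, adjusted p = 8.92e-05). Thy1, a surface protein of nerve cells and other cells, was 2.11-fold lower (adjusted p = 0.0189), with 2859.6, 2739.7 and 1032 on the SPI arrays, where replicate 3 stood apart. Calb2, or calretinin, gave 1323, 1841 and 1377 with SPI and 2322, 2862 and 2429 with WPH (log2 change -0.76, adjusted p = 0.00384, or 0.0653 when wash round was a block). Syn1 gave 307, 340.4 and 323 with SPI and 397, 383 and 472 with WPH and did not pass the test (adjusted p = 0.0693), although every SPI array was below every WPH array. The 7 neuron markers summed to 5668 to 6688 with SPI and 9759 to 10603 with WPH, and to 3508 to 3902 with CAS. Among them the neuropeptide Vip had mean signals of 229 with SPI and 211 with WPH.

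Of 10 glial and myelin genes, 5 were lower and none higher (median -0.46), and 1 of the 5 was still lower with wash round as a block. S100b, a calcium-binding protein of glia, was read at 1317, 1059 and 1258 with SPI and 2262, 1518 and 1742 with WPH (1.52-fold lower, adjusted p = 0.0148). Sox10, the transcription factor of glia, gave 109.7, 49 and 108 with SPI and 203, 180 and 184 with WPH (2.13-fold lower, or 1.79-fold with 1 SPI array set to 100, adjusted p = 0.0451, or 0.103 with the block). Of 13 enteroendocrine hormones and granins, 8 were lower and 1, chromogranin B (Chgb), was higher. In the block fit 5 were lower and none was higher. Somatostatin (Sst), which endocrine and nerve cells release, gave 1207, 1073 and 1196 with SPI and 2285, 2220.1 and 2063 with WPH (1.89-fold lower, adjusted p = 5.43e-05). The secretogranins Scg2 and Scg3 had log2 changes of -0.84 and -0.76. Peptide YY (Pyy), of colonic L cells, overlapped between diets, at 162, 218 and 153 with SPI and 197, 129.6 and 130 with WPH (adjusted p = 0.464). The transcripts Gcg, Cd52 and Ptgds were under 100 on all 6 arrays and were not compared.

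Smooth muscle transcripts were lower with SPI by smaller factors. Of 16 contractile genes, 10 were lower and none was higher, with a median log2 change of -0.49. Calponin (Cnn1), which regulates contraction, was read at 16637, 18830.4 and 18611 with SPI and 25012, 30502 and 27624 with WPH (1.54-fold lower, adjusted p = 5.43e-04). The enteric smooth muscle actin Actg2 gave 26875, 29308 and 26232 with SPI and 34902, 41962 and 40506 with WPH (1.42-fold, adjusted p = 0.00293). Myh11, given above, was 1.43-fold lower (adjusted p = 5.28e-04). The 6 markers summed to 118934 to 120680 with SPI and 158601 to 179274 with WPH, and 81342 to 84496 with CAS.

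The smooth muscle count depended on the scaling. After quantile normalization 3 of the 16 were lower, and with wash round as a block 5 were. Very bright probe sets were lower with SPI as a class, with a median log2 change of -0.27 over the 121 whose signal averaged 10000 or more, against -0.08 over the other 5333, and quantile normalization moved the former to -0.03. The neuron count stayed at 24 under that scaling. Ribosomal protein transcripts were lower in 5 of 37, a share near the 10.2% over all probe sets, and higher in none (median -0.17). None of the 5 was called with wash round as a block, and Rps29 and Rpl27a turned positive after quantile normalization.

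**Figure D4:**
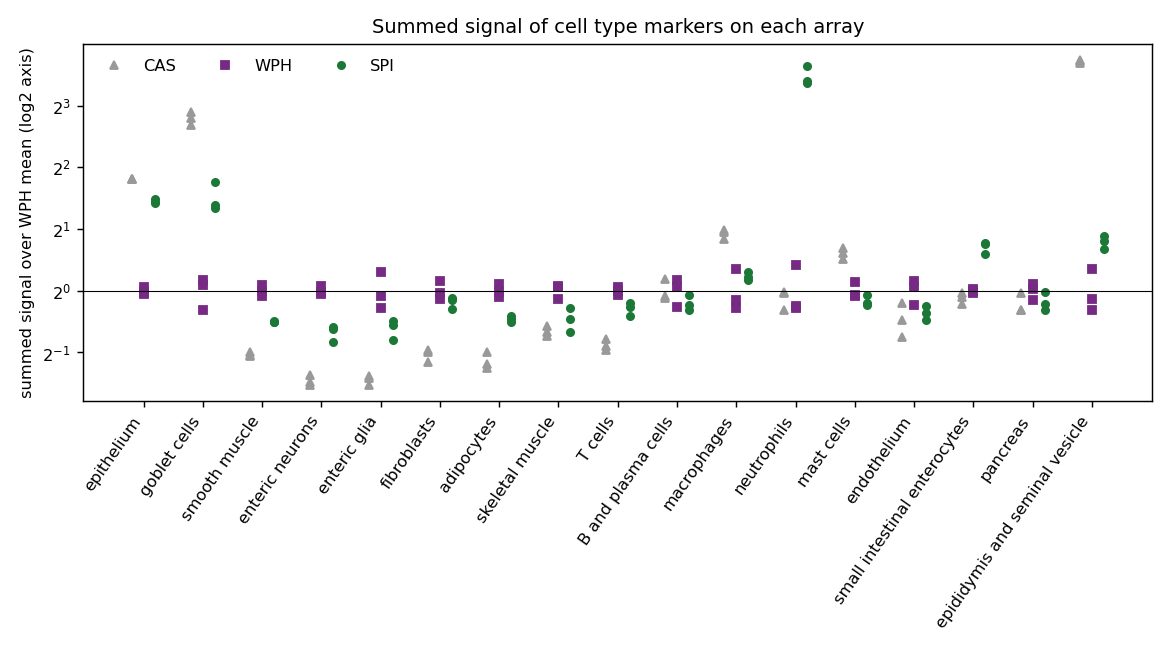
Summed signal of the markers of 17 cell types and tissues on each array, divided by the mean of the 3 WPH arrays, on a log2 axis. SPI arrays lie above all WPH arrays for epithelium, goblet cells, neutrophils, small intestinal enterocytes and the epididymis and seminal vesicle set. They lie below all WPH arrays for smooth muscle, enteric neurons, enteric glia, adipocytes, skeletal muscle, T cells and, narrowly, endothelium, and overlap for the rest. Enteric glia (S100b) and B and plasma cells (Cd79b) are read by 1 marker each. A sum can hide members that go the other way, such as Cd3g among T cells and Adam7 in the epididymis and seminal vesicle set.

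Transcripts of fat and skeletal muscle were in part lower with SPI too. Of 19 adipocyte genes, 7 were lower and 1, Dgat1, was higher, but in the block fit 2 were lower and none was higher. Adipsin (Cfd), a serine protease of fat cells, was read at 2397, 2426 and 2559 with SPI and 4113, 3994 and 4187 with WPH (1.67-fold lower, adjusted p = 1.62e-04). Adipocyte markers summed to 8085 to 8725 with SPI and 10744 to 12391 with WPH, with perilipin (Plin1) at a mean under 100 in both diets. Of 11 skeletal muscle genes, 3 were lower, among them Pygm, the muscle glycogen phosphorylase, with a log2 change of -0.77. Of 9 endothelial genes, 2 were higher and 1 lower, beside 10.2% in each direction over all probe sets, or 1 and 1 in the block fit. The higher ones were Ace, the angiotensin-converting enzyme, and Cav1, or caveolin 1, at log2 changes of 1.33 and 0.70 (adjusted p = 7.33e-05 and 0.0140). The lower one was Aqp1, a water channel of small vessels, read at 536, 757 and 523 with SPI and 1138, 1375 and 1516 with WPH (2.22-fold lower, adjusted p = 8.31e-04). Crabp1, a carrier of retinoic acid, gave 364, 333 and 279 with SPI and 718, 766 and 751 with WPH (2.29-fold lower, adjusted p = 2.22e-04). The marker sums of epithelium were thus higher, and those of muscle and nerve lower, on every SPI array than on any WPH array, and the part of tissue composition in the results above was not tested.

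Among the deepest decreases with SPI were transcripts of plasma proteins made mainly in the liver. Ttr, which encodes transthyretin, was read at 25.2, 43.2 and 64.4 with SPI and 430.3, 411 and 466 with WPH. Albumin (Alb) gave 57.5, 36.1 and 46.9 with SPI and 478, 403 and 368 with WPH. For both, all SPI arrays were under 100 and all WPH arrays over 300, and the decreases were at least 4.36-fold for Ttr (log2 change -3.40 ± 0.32, adjusted p = 2.29e-05) and at least 4.16-fold for Alb (-3.17 ± 0.23, adjusted p = 2.85e-06). Fetuin (Ahsg) gave 34.5, 73.5 and 54.2 with SPI and 272, 299 and 261 with WPH (at least 2.77-fold, adjusted p = 1.30e-04). Serpina1, which encodes α1-antitrypsin, was the brightest of them, at 206, 213 and 235 with SPI and 1059, 1040 and 1030.4 with WPH (4.79-fold, adjusted p = 9.34e-08). The CAS means were 171, 122, 101 and 417, between those of the 2 diets in each case.

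A list of 38 liver-made plasma proteins and liver enzymes, drawn up after these values had been seen, gave 9 lower and none higher among 19 measured. Members that reached a mean of 100 with WPH alone, among them Ttr, Alb and Ahsg, could hardly come out higher, so that the filter favoured this direction. This list is not independent of the genes that prompted it. It leaves out Apoa1, Apob, Cps1 and Otc, which the liver also makes and which were higher with SPI. Of the 31 on the array, 12 were under 100 in both diets, including the liver enzymes Tat, Tdo2 and Cyp2c7 and the plasma protein Apoh. Apolipoprotein C-III (Apoc3) had mean signals of 570.0 with SPI and 467 with WPH, and Cyp2e1 166 and 175. Retinol binding protein Rbp4, also a product of liver and fat, gave 949, 605 and 963 with SPI and 1244, 929.7 and 1022 with WPH, overlapped and did not pass the test (adjusted p = 0.198). Whether another tissue contributed RNA to the WPH pool was not tested.

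Metabolic genes changed mostly by small factors between SPI and WPH. Of 16 genes of cholesterol synthesis, 7 were higher and none lower (median 0.32), with no change of 2-fold, and 3 were higher in the block fit. Cyp51, which removes a methyl group from lanosterol, was read at 894, 1127 and 1033 with SPI and 573, 547 and 539 with WPH (1.84-fold, adjusted p = 2.53e-04). In glycolysis and hexose metabolism 8 of 23 were higher and 3 lower, or 4 and 2 in the block fit. The higher ones included Fbp2 and Khk, or ketohexokinase, and the lower ones the brain and muscle isoforms Aldoc and Pfkm. In fatty acid oxidation 3 of 30 were higher and 3 lower, and in the respiratory chain 2 of 34 were lower and none higher. The shares of these last lists were at or below the 10.2% found over all probe sets.

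Genes of growth control passed the test in shares near or below the 10.2% in each direction over all probe sets. Among 27 cyclins and proliferation genes, 2 were higher (1 in the block fit) and none lower. Cyclin D1 (Ccnd1) was read at 1619, 1583 and 1994 with SPI and 1312, 1144 and 1037 with WPH (1.49-fold, adjusted p = 0.00935, or 0.101 when wash round was a block), and Top2a, of dividing cells, was 1.67-fold higher (adjusted p = 0.00254). These are the brightest probe sets. Dimmer ones gave log2 changes of 0.47, 0.46 and 0.23 for Ccnd1 (adjusted p = 0.0971, 0.0760 and 0.313) and 0.29 for Top2a (adjusted p = 0.470), and did not pass the test. Among 38 ErbB receptors, growth factors and protein kinase C genes, 4 were higher and 4 lower (1 and 1 in the block fit), with a median log2 change of -0.00116. Erbb2, the receptor tyrosine kinase HER2, gave 263, 272 and 295 with SPI and 175, 149 and 178 with WPH (1.65-fold, adjusted p = 0.00663, or 0.0871 with the block). Amphiregulin (Areg), a ligand of the EGF receptor, was higher by at least 1.09-fold, from 12.5, 48.9 and 24.6 with WPH to 103, 93.7 and 131 with SPI (adjusted p = 0.00641). Protein kinase C delta (Prkcd) was 1.36-fold higher (adjusted p = 0.0136), and Mapk6 gave a log2 change of 0.30 that did not pass the test (adjusted p = 0.0647).

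Within the shared wash round most changes of at least 2-fold kept that size. The fit with wash round as a block has these same log2 changes, and fewer passed the test with it. Of the transcripts named above, Cd5, Actg2 and Prkcd were also among those that then missed the threshold, with adjusted p of 0.0871, 0.0561 and 0.0904. Among the 4 arrays washed together, 222 of the 243 higher and 48 of the 56 lower probe sets were still changed by at least 2-fold. In that comparison the log2 change was 4.81 for Reg3g, 5.78 for Spp1, 3.63 for Slc11a2, 2.29 for Epcam and -3.20 for Alb, against 4.84, 5.89, 3.58, 2.38 and -3.17 over all arrays. For Cnn1 it was -0.57 against -0.62, and for Nefm -1.10 against -0.95.

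**Figure D5:**
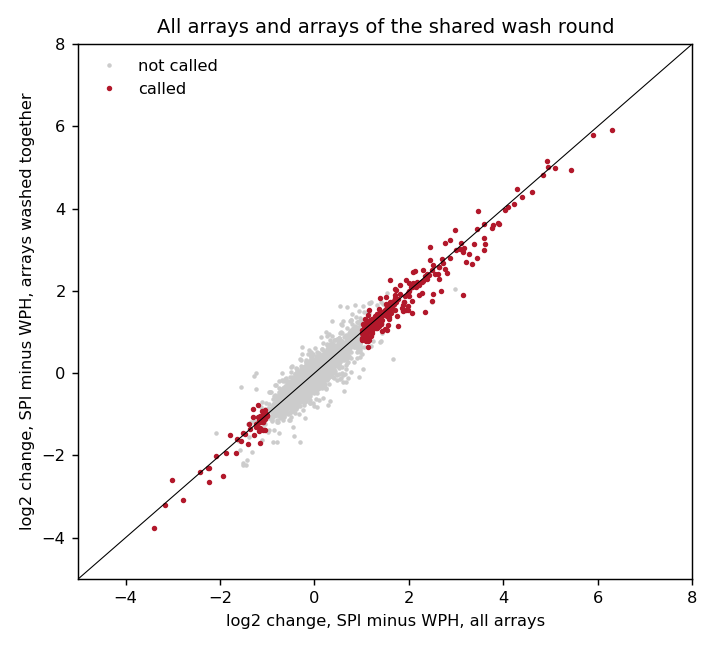
Log2 change, SPI minus WPH, of the 5454 compared probe sets over all 6 arrays (horizontal) and over the 4 arrays washed in the same round (vertical), with the line of equality. The called probe sets, in red, lie 243 above and 56 below 0 on both axes. For the 241 and 55 without overlap between diets this had to follow, as the 4 arrays are part of the 6.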

How the data were processed

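RNA of 7 rats per diet was pooled, and 10 µg of each of 3 cRNA targets per pool was hybridized for 16 hours to rat RG_U34A arrays. The authors computed MAS 5.0 signal values on a linear scale and brought every array to the same average, 500, and the deposited signals, without detection calls, were the starting point. Depth is limited by 3 arrays per diet. The instrument settings files (other text fields) were read only for hybridization times, which gave the wash rounds, and for the array type. Of 8799 probe sets, 59 controls were left out. Signals were floored at 0.1 (4 values) and changed to log2, and all 9 arrays were fitted in limma 3.58.1 (R 4.3.3) with a variance trend. Adjusted p-values are those of limma's moderated test for SPI minus WPH, with Benjamini-Hochberg adjustment over 5454 probe sets. A call needed an adjusted p under 0.05 and a log2 change of at least 1, and list members were counted at an adjusted p under 0.05 alone. Errors of log2 changes are SE, and those of signals are SD with n = 3. Fold changes are ratios of mean signals.

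By the platform annotation 7018 probe sets had 1 symbol, 308 had several and 1473 had none. The brightest probe set stood for a gene in a list. Other probe sets of a gene did not always pass the test with it, as for Myh11, Pfkm, Hspb1 and Egr1. Named genes were the 12 largest increases and decreases among calls that had 1 symbol, averaged 200 or more in the brighter diet and held in 9 of 9 array pairs, up to 5 members of each list past the threshold, and genes named in the paper's text. Genes outside this rule, such as RT1-Bb, Plaur, Dcn, Krt20, Guca2a and Hmox2, and probe sets without a single symbol were chosen after their values were seen. The members and lists were chosen with earlier results of these data known. Promoter sequences came from RefSeq (GRCr8). Same-numbered arrays of the 2 diets were checked for shared deviations (correlations 0.22, 0.04 and -0.13), and the numbers were not taken as pairs. The fit was tested on simulated data. Alternatives covered the floor, offset, filter, normalization, variance trend, samples fitted, blocks, single arrays, fold minimum, the methods' t-test and averaging of probe sets. Python 3.11.15, pandas 2.3.3, numpy 2.4.6 and matplotlib 3.10.9 were used.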

Additional observations from a re-analysis of the deposited data

How the results depend on the processing

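The precision of every value rests on 3 technical arrays per diet, and a diet under 100 on all 3 gives bounds only. Against 243 probe sets called higher and 56 lower, leaving out 1 array gave 217 to 267 higher and 44 to 61 lower. No fold minimum gave 554 and 554, a minimum of 1.5-fold 418 and 243, and one of 3-fold 124 and 14. The methods' t-test with 9 of 9 pairs gave 134 and 13, and with Benjamini-Hochberg adjustment 33 lower. A filter at 200 left 35 lower, no filter 86, and the shared wash round alone 34. Without a fold minimum, 349 were higher and 214 lower (554 each before) with wash round as a block, 223 and 107 within the shared round, and 422 to 525 and 347 to 518 with 1 array left out, the lowest without WPH replicate 2 (347). The smooth muscle count of 10 fell to 3 after quantile normalization, 5 with the wash round block and 4 within the shared round, and the neuron count of 24 to 13 within the shared round. With 1 array left out, 10 to 11 smooth muscle, 19 to 21 neuron and 21 to 22 epithelial genes were counted. The lower counts within the round come with 4 arrays in place of 6, and the wash round block takes its change from the same 4. The cause of the other shifts was not tested. Rps29 (log2 change 0.064) and Rpl27a (0.152) reversed under quantile normalization. Of 173 named probe sets past the threshold, 123 stayed past it with wash round as a block and 98 within the shared round, and 146 to 161 with 1 array left out.

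With replicate number as a block, 241 were called higher and 48 lower, or 477 and 412 without a fold minimum. Of the 3 same-numbered array pairs, 1 correlated negatively (-0.13), so that the numbers did not pair the arrays.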

Other observations

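Several transcripts outside the groups described above also differed between SPI and WPH. Prap1, a secreted proline-rich acidic protein, was read at 1020.4, 1124 and 991 with SPI and 63.3, 47.5 and 117 with WPH (13.8-fold higher with SPI, or 9.89-fold with 2 WPH arrays set to 100, adjusted p = 1.02e-05 by limma), so that the WPH arrays all lay far below the SPI arrays. Semg1, which encodes semenogelin, gave 278, 265 and 337 with SPI and 29.4, 12.6 and 51.4 with WPH (at least 2.93-fold, adjusted p = 0.00293). Actn2, an actin-binding protein of striated muscle, was lower with SPI, at 134, 126 and 157 with SPI and 323, 339 and 316 with WPH (2.35-fold, adjusted p = 4.03e-04). Rgs9, a regulator of G protein signalling, gave 235, 185 and 156 with SPI and 464, 501 and 525 with WPH (2.59-fold lower, adjusted p = 0.00658), and it missed the threshold with wash round fitted as a block (adjusted p = 0.0764).

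Stress and immediate early genes changed by less than 2-fold. Of 25 heat shock proteins and chaperones, 3 were higher and 4 were lower, beside 10.2% in each direction over all probe sets. The higher ones were P4hb, Hsp90b1 and Pdia4, which fold proteins in the endoplasmic reticulum, at log2 changes of 0.61, 0.48 and 0.44. The lower ones were Serpinh1, the collagen chaperone, at -0.51, and Hspa4, Hspb1 and Cryab at -0.85, -0.55 and -0.48. Fitted with wash round as a block, 1 of the 3 and 2 of the 4 passed. Of 24 immediate early genes, 5 were higher and none was lower. These were Klf4, Atf3, Junb, Dusp6 and Egr1, at log2 changes between 0.48 and 0.67, and 2 of the 5 passed in the block fit. Of 9 interferon-responsive genes 1 was higher, a share near that 10.2%. It was Xdh, or xanthine dehydrogenase, at a log2 change of 1.04. None of 5 mast cell markers passed the test, and their median log2 change was -0.06.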
